A study of Ocimum americanum with 4 samples.

Results

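Heat shock proteins and molecular chaperones were examined in leaves of *O. americanum* var. *pilosum*, a basil that does not tolerate chilling. The set holds the unigenes whose best Swiss-Prot match is described with the words heat shock, DnaJ, chaperonin or chaperone, apart from histone and RNA chaperones, which gave 235 of the 42816 assembled unigenes. The rule reads these words only and no expression value. A unigene here is the longest transcript assembled from the pooled reads for a putative gene, and it is named by the protein it matches best, which may come from another plant, a bacterium or an animal.

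The data are 4 RNA-seq libraries from leaves of plants 30 days old, all of the variety *pilosum* and grown at about 21 °C according to the sample labels. Control libraries (replicates 1 and 2) came from plants left untreated, and chilling libraries (replicates 1 and 2) came from plants moved to 4 °C for 12 h. The labels name no transgene or mutation in either group. Per the study's methods, control plants shared the other conditions at normal temperature while the treatment ran, and the replicates were collected together. The clock hour of harvest of each group was not found in the sources used here. How many plants went into each library was not given either, so p-values measure the spread between these libraries.

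Chaperones hold or refold proteins that are unfolded, newly made or on their way into an organelle. HSP70 proteins bind short exposed stretches of a client with the help of DnaJ proteins, which deliver clients and speed up ATP use, and of BAG proteins, which help to release ADP. HSP90 acts later, often on signalling proteins. Chaperonins enclose a client in a barrel closed by a smaller lid protein, HSP100 proteins pull proteins out of aggregates, Clp ATPases feed proteins to a protease, and small heat shock proteins bind unfolded clients without using ATP. In leaves, much of this machinery serves the chloroplast, where the large subunit of RuBisCO needs a chaperonin to fold.

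Levels are given as FPKM, the number of fragments scaled to unigene length and to the mapped reads of the library, in the order replicate 1 and replicate 2. The number of reads behind a single value is not known from these files. Changes are differences of log2(FPKM + 1), chilling minus control, with the standard error of the limma fit (n = 2 libraries per group), and folds are ratios of mean FPKM. A unigene was called higher or lower when its limma adjusted p, adjusted over the 33036 unigenes whose FPKM averaged at least 1, was at most 0.01 and its fold was at least 2. The pseudocount understates the log2 change of low unigenes.

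Of the 235 members, 206 reached the mean of 1 FPKM and were tested, and 29 were not. After chilling, 17 of the tested members were called higher and 27 lower, which is 8.25% and 13.1% of the tested members, and 162 were not called. Over all tested unigenes 11.9% were called higher, 13.8% lower and 25.6% in either direction, so the share of called members, 21.4%, was a little below the background. The counts of each class and list below are to be read beside these background shares. At an unadjusted p under 0.05 in limma, 11295 of the 33036 tested unigenes were higher and 11025 lower. Among the 206 tested members 57 were higher and 89 lower at that limit. A further 62 members passed the adjusted p with a fold under 2, beside 7360 of the 33036 tested unigenes. At any fold, 106 of the 206 tested members and 15825 of the 33036 unigenes passed it. Later counts of unigenes that passed the adjusted p are to be read beside these. The groups did not overlap in 68 members with chilling above control and in 102 with chilling below, beside 41.7% and 40.3% of all tested unigenes and 82% in either direction. The median change of the tested members was -0.16, against -0.004 over all tested unigenes.

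The summed level of the 235 members was 9116 and 9224 FPKM in the control libraries and 7872 and 7886 FPKM in the chilling libraries. As a share of each library's total this was 1.04% and 1.05% in the controls and 1.02% and 1.02% after chilling. The library totals themselves differed, at 875599 and 874864 FPKM in the controls and 773457 and 772255 FPKM after chilling. With the libraries set to a common total (TPM), the median of all tested unigenes shifted by 0.15 on the log2 scale, the calls among members became 21 higher and 20 lower, and the share of member calls that were higher went from 38.6% to 51.2%. Over all unigenes that share moved alike, from 46.3% to 57.9%. On the TPM scale the median of the members was 0.005 beside 0.15 over all tested unigenes, so the members lay below the median of all unigenes on both scales. Replicates were close: in the members with a mean of at least 100 FPKM, the replicates of a group differed by at most 0.13 on the log2 scale.

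The summed levels of the classes differed in direction. Summed over its members, the chaperonin class was lower in both chilling libraries than in both controls, the HSP70 class was higher, the DnaJ class was a little higher, and the small class of BCS1 proteins was higher. The BCS1 sum rested largely on 1 unigene, Ob_25800, without which it was 46.8 and 46.5 FPKM in the controls and 65.5 and 65.0 FPKM after chilling. As a share of the library total, the DnaJ sum was 0.266% and 0.269% in the controls and 0.314% and 0.315% after chilling. The sums were not tested.

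**Figure D1:**
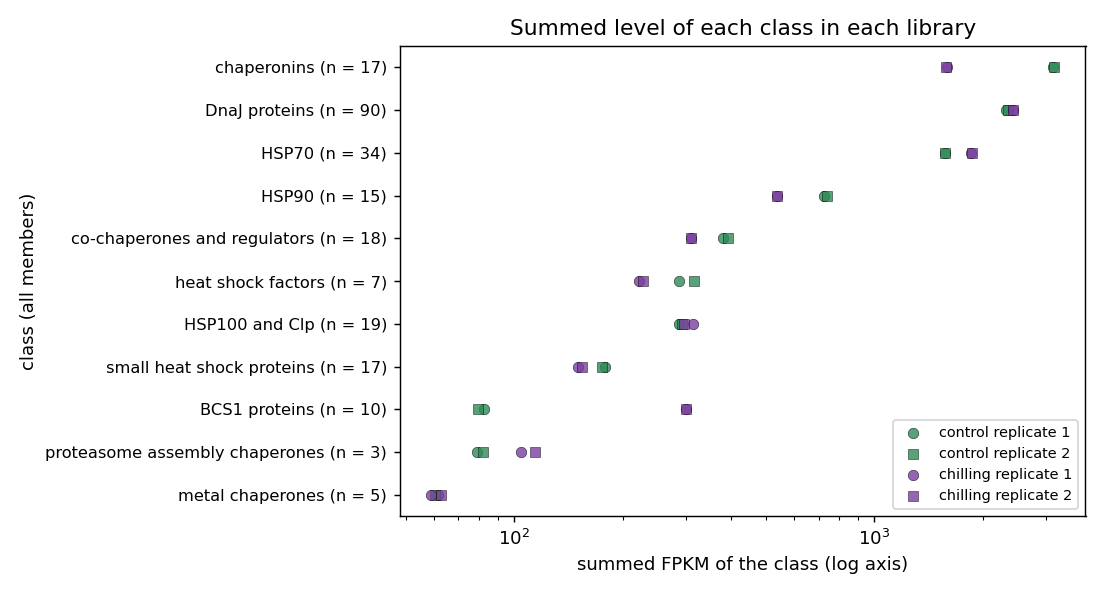
Summed FPKM of all members of each class on a log axis, with a point for each of the 4 libraries (green, control; purple, chilling; circle, replicate 1; square, replicate 2). Chaperonins lie at 3140 and 3162 FPKM in the controls and at 1591 and 1585 FPKM after chilling, while BCS1 proteins lie at 82.7 and 79.5 FPKM in the controls and at 301 and 299 FPKM after chilling, most of it from Ob_25800.

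Chaperonins were the class with the highest summed level in the controls, and 6 of the 16 tested members were called lower and 0 higher. In the limma fit 1 chaperonin was higher at an unadjusted p under 0.05. The class median was -0.68. The member with the highest mean level in the whole set was Ob_27751, matched to CPN21, the chloroplast lid protein that closes the plastid chaperonin barrel. It was at 1169.9 and 1173 FPKM in the control libraries and 458 and 461 FPKM in the chilling libraries, a change of -1.35 ± 0.012 and 2.55-fold lower (limma adjusted p = 5.12e-09). Another tested unigene with the same CPN21 match had a change of 0.035 and was not called. The barrel subunit CPN60B2 (Ob_34747) was at 945 and 960.2 FPKM in the control libraries and 377 and 378 FPKM in the chilling libraries, 2.52-fold lower (adjusted p = 1.03e-08). In Ob_27751 and Ob_34747 the chilling libraries were far below the controls and the replicates lay close together.

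Other barrel subunits of the plastid moved the same way. CPN60B1 (Ob_10635), a weak Swiss-Prot match (expectation value 6e-12) whose nr match is the RuBisCO-binding protein subunit beta, was at 99.6 and 100.3 FPKM in the control libraries and 32 and 31.9 FPKM in the chilling libraries, a change of -1.62 ± 0.034 (adjusted p = 1.55e-07). CPN60A1 (Ob_27296), an alpha subunit picked after its values were seen, was at 38.1 and 38.3 FPKM in the control libraries and 17.5 and 16.5 FPKM in the chilling libraries, 2.25-fold lower (adjusted p = 7.21e-06), and this call was lost after TPM rescaling. An exception was the beta subunit CPN60B4 (Ob_31287), named here after its values were seen, at 49.8 and 47.5 FPKM in the control libraries and 82.7 and 84.3 FPKM in the chilling libraries, a change of 0.77 ± 0.038 with a fold under 2. Its chilling libraries lay above its controls, whereas the chilling libraries of the other subunits named here lay below. The 8 chaperonins with chloroplastic in the name of their match summed to 2316 and 2334 FPKM in the controls and to 979 and 984 FPKM after chilling, a ratio of 2.37.

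The alpha subunit of the RuBisCO-binding protein (Ob_32641) is another name for a plastid chaperonin subunit, but its description lacks the words of the rule. It was at 668 and 665 FPKM in the control libraries and 219.6 and 225 FPKM in the chilling libraries, 2.99-fold lower (adjusted p = 1.33e-08). Leaf marker genes moved in the same direction as these plastid chaperonins: of 24 tested unigenes for chlorophyll a-b binding proteins, the RuBisCO small chain, plastocyanin and glycolate oxidase, 16 were called lower and 0 higher (1 higher at an unadjusted p under 0.05 in limma), and their summed level was 44958 and 44832 FPKM in the controls and 17724 and 17714 FPKM after chilling. The part of this in the chaperonin result was not tested. These markers held 5.13% and 5.12% of the control totals and 2.29% and 2.29% of the chilling totals. With these shares the libraries fit their label as leaf. In the controls, 3 seed marker unigenes summed to 22.1 and 22.0 FPKM, and 28 unigenes with a pollen or flower name to 545 and 540 FPKM. After chilling the pollen and flower sum was 643 and 644 FPKM. No unigene with a root marker name was found. In bulk leaf RNA, fewer cells of a type and less RNA per cell cannot be told apart.

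Among mitochondrial and bacterial-type chaperonins the changes were smaller or less secure. Ob_25069, matched to the mitochondrial-type lid protein CPN10 and picked after its values were seen, was at 25.8 and 33.8 FPKM in the control libraries and 11.9 and 12.5 FPKM in the chilling libraries, 2.45-fold lower (adjusted p = 2.04e-04). Its call was lost without chilling replicate 1 (adjusted p = 0.0159) or without chilling replicate 2 (adjusted p = 0.0149). Ob_36514, matched to the mitochondrial barrel subunit CPN60-2 and named here after its values were seen, was at 95.6 and 97.5 FPKM in the control libraries and 49.8 and 50.5 FPKM in the chilling libraries, a change of -0.93 ± 0.032 with a fold under 2. Ob_39667, matched to the barrel subunit CPN60-1 and with its best nr match in rice, was at 5.36 and 4.36 FPKM in the control libraries and 1.02 and 0.86 FPKM in the chilling libraries. It was called lower (adjusted p = 3.47e-04), but not without chilling replicate 1 (adjusted p = 0.0115) or chilling replicate 2 (adjusted p = 0.014).

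A pair of abundant members matched the bacterial lid protein GroS, and the nr match of both was the same chloroplastic chaperonin of tomato. Ob_18769 was at 443 and 428 FPKM in the control libraries and 300.3 and 293 FPKM in the chilling libraries, a change of -0.55 ± 0.022. Ob_13883 was at 119.6 and 118 FPKM in the control libraries and 123 and 119 FPKM in the chilling libraries, a change of 0.03 ± 0.028 (adjusted p = 0.416), and its groups overlapped. Neither was called.

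The cytosolic chaperonin of plants is the TCP-1 ring, which helps to fold actin and tubulin, and its subunits lie outside the rule. Of its 8 unigenes without a rice or other grass match, limma called 0 at a fold of 2, but all 8 passed the adjusted p, 7 with a negative and 1 with a positive change and a median of -0.71. These 8 summed to 784 and 787 FPKM in the controls and 507 and 512 FPKM after chilling. With the rice matches and the RuBisCO-binding subunits included, 2 of 23 tested unigenes were called lower and 0 higher (1 higher at an unadjusted p under 0.05).

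**Figure D2:**
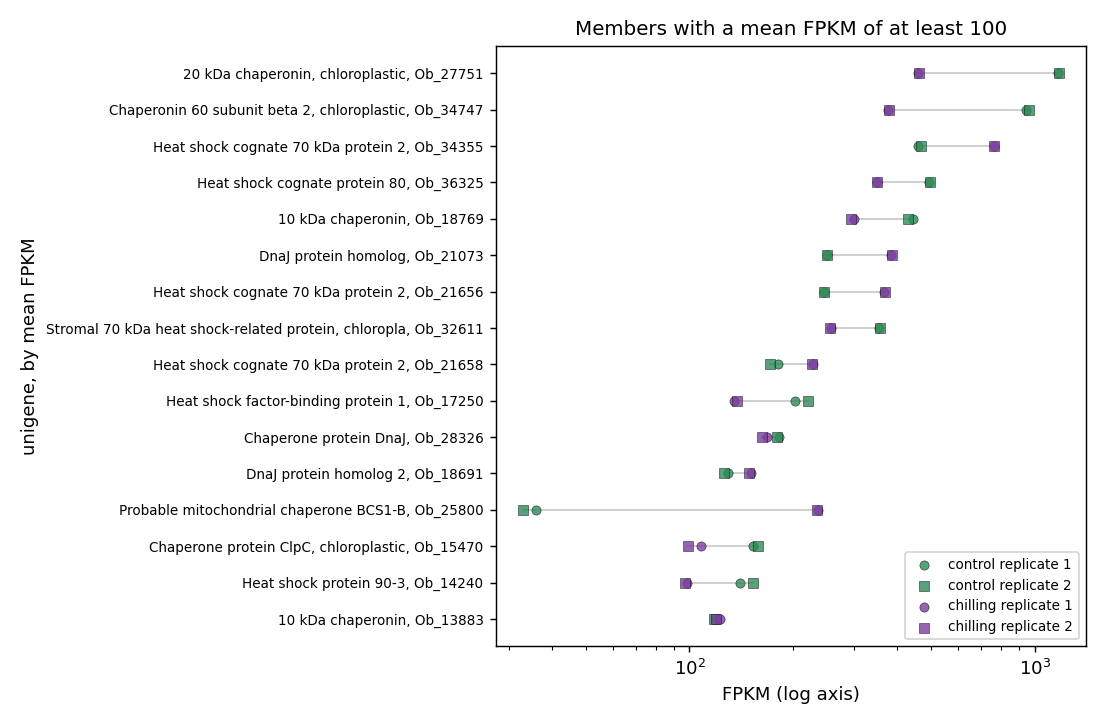
FPKM (log axis) of the 16 members with a mean of at least 100 FPKM, each row a unigene named by its Swiss-Prot match, with a point for each library (green, control; purple, chilling; circle, replicate 1; square, replicate 2). The top 2 rows, CPN21 and CPN60B2, lie between 377 and 461 FPKM after chilling and between 945 and 1173 FPKM in the controls, and the BCS1 unigene Ob_25800 has the widest gap in the other direction.

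In the HSP70 class the 3 most abundant cytosolic unigenes lay above their controls after chilling, while the called members were lower. Of 34 members 22 were tested, 5 were called lower and 0 higher by limma (4 higher at an unadjusted p under 0.05), with a median of -0.47. The summed level was nevertheless higher after chilling, at 1852 and 1866 FPKM against 1570 and 1574 FPKM in the controls. Of the 34 members, 13 had their best nr match in rice, and without these the median over 18 tested members was -0.06. All 5 called members were among the 18.

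The higher sum rested on 3 unigenes that share a match, the constitutive cytosolic protein HSC-2 of tomato. Ob_34355 was at 459 and 469.7 FPKM in the control libraries and 763 and 763 FPKM in the chilling libraries, a change of 0.72 ± 0.016 (adjusted p = 1.75e-07). Ob_21656 was at 245 and 245 FPKM in the control libraries and 365 and 369 FPKM in the chilling libraries, a change of 0.58 ± 0.017. Ob_21658 was at 181 and 171 FPKM in the control libraries and 228 and 226 FPKM in the chilling libraries, a change of 0.37 ± 0.03. In each of the 3 both chilling libraries were above both controls, and each passed the adjusted p with a fold under 2, so that none was called. Together they held 885 and 885 FPKM in the controls and 1356 and 1358 FPKM after chilling, a ratio of 1.53. They may be copies or pieces of the same gene, since reads from near-identical transcripts could have been divided among them.

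The organelle members of the class were lower or not called. The stromal HSP70 (Ob_32611), which works in protein import and folding in the chloroplast, was at 354 and 355 FPKM in the control libraries and 256 and 256 FPKM in the chilling libraries, a change of -0.47 ± 0.016 with a fold under 2. HSP68 (Ob_34027), a mitochondrial HSP70, was at 16.4 and 14.6 FPKM in the control libraries and 4.75 and 4.53 FPKM in the chilling libraries, 3.33-fold lower (adjusted p = 2.92e-05). A second mitochondrial unigene, Ob_22570, was at 35.8 and 34.9 FPKM in the control libraries and 15.7 and 18 FPKM in the chilling libraries and was called lower at a fold of 2.1. That call was lost without chilling replicate 1, where the fold was 1.96, without control replicate 1, where the adjusted p was 0.0101, and after TPM rescaling.

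The remaining called HSP70 members were low in all libraries. HSP70-15 (Ob_13497), of the HSP110-like branch that helps other HSP70 proteins exchange nucleotide, was at 5.95 and 8.96 FPKM in the control libraries and 2.01 and 1.99 FPKM in the chilling libraries, 3.73-fold lower (adjusted p = 7.78e-04). With chilling replicate 1, chilling replicate 2 or control replicate 2 left out its adjusted p was 0.0254, 0.0272 and 0.012, past the limit. The plastid HSP70-6 (Ob_05295) was at 2.49 and 1.9 FPKM in the control libraries and 0.42 and 0.55 FPKM in the chilling libraries. It was called lower (adjusted p = 0.00396), but in no fit that left out a library: its adjusted p was 0.0121 to 0.0379 in 3 of them, and it fell under the filter without control replicate 1. A second HSP70-15 unigene, Ob_13973, named here after its values were seen, was at 11 and 8.16 FPKM in the control libraries and 3.84 and 5.67 FPKM in the chilling libraries, and its call was likewise lost whichever library was left out (adjusted p 0.0279 to 0.109) and after TPM rescaling. The match of Ob_13973 was weak (expectation value 3e-15), and its nr match was a hypothetical protein. Of the 4 unigenes with the HSP70-15 match, 2 were called lower and 0 higher. The most abundant of them, Ob_18324, averaged 37.8 FPKM over all libraries and did not move. Its change was 0.015 ± 0.043 (limma adjusted p = 0.777) and its groups overlapped. The rice-matched Ob_39771 had a change of -0.79 and was not called. Both were named after their values were seen.

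HSP90 unigenes of high level were somewhat lower after chilling, and none of them was called. HSC80 (Ob_36325), a constitutive cytosolic HSP90, was at 493 and 496 FPKM in the control libraries and 349 and 349 FPKM in the chilling libraries, a change of -0.50 ± 0.014 (adjusted p = 6.1e-07). HSP90-3 (Ob_14240) was at 140.1 and 152 FPKM in the control libraries and 98.4 and 97.2 FPKM in the chilling libraries, a change of -0.57 ± 0.042. For both, the chilling libraries lay below the controls with a fold under 2. The class summed to 725 and 740 FPKM in the controls and to 538 and 536 FPKM after chilling.

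Within the 10 tested HSP90 members 1 was called higher and 1 lower, with a median of -0.54. The higher member was Ob_17432, matched to an HSP82 fragment, at 3.19 and 3.13 FPKM in the control libraries and 19.8 and 20.4 FPKM in the chilling libraries, 6.36-fold higher (adjusted p = 2.68e-06). Its level rose from far below to still far below that of HSC80. Another tested unigene with the same HSP82 match had a change of 0.20 and was not called. The lower member was Ob_10937, matched to HSP81-3 with its best nr match in rice, at 7.82 and 6.77 FPKM in the control libraries and 3.58 and 2.92 FPKM in the chilling libraries. It was called in the full fit (adjusted p = 0.00135), but not after TPM rescaling nor with any library left out (adjusted p 0.0169 to 0.031). Of the 5 unigenes matched to HSP83A, 1 was tested.

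**Figure D3:**
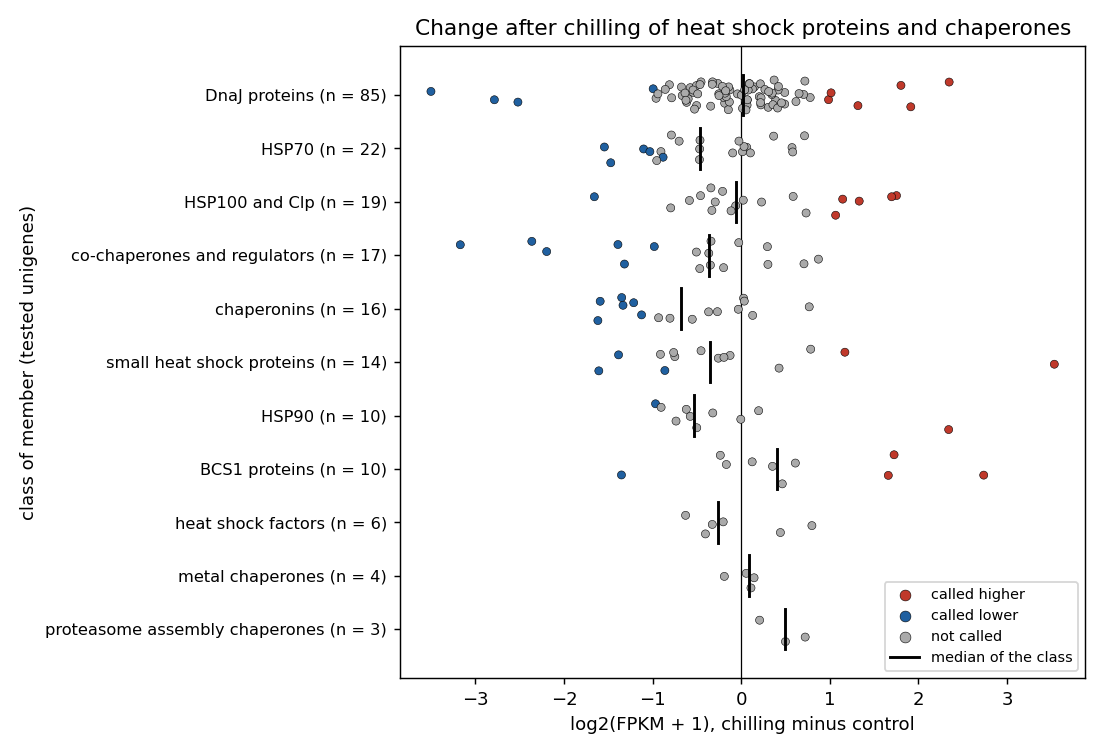
Change after chilling, as log2(FPKM + 1) of chilling minus control, of the 206 tested members by class, with a point for each unigene (red, called higher; blue, called lower; grey, not called) and a black bar at the class median. The medians run from -0.68 in chaperonins to 0.50 in proteasome assembly chaperones, and points called in both directions occur in DnaJ, HSP100 and Clp, small heat shock, HSP90 and BCS1 proteins.

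In the HSP100 and Clp class 5 of 19 tested members were called higher and 1 lower, with a median of -0.06 that became 0.09 after TPM rescaling. The higher members included a pair matched to ClpD, a chloroplast ATPase of the Clp protease that is known in Arabidopsis as a dehydration-responsive gene. Ob_35694 was at 14.4 and 13.4 FPKM in the control libraries and 36.2 and 36.7 FPKM in the chilling libraries, 2.63-fold higher (adjusted p = 5.25e-06), and Ob_10941 was at 10.2 and 8.7 FPKM in the control libraries and 36.5 and 31.9 FPKM in the chilling libraries, 3.62-fold higher (adjusted p = 1.32e-05). All 3 ClpD unigenes had both chilling libraries above both controls, and 2 of the 3 were called.

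ClpC, the housekeeping partner of the same protease, did not move that way. The abundant ClpC unigene Ob_15470 was at 152 and 158 FPKM in the control libraries and 108 and 98.8 FPKM in the chilling libraries, a change of -0.58 ± 0.046 with a fold under 2. All 5 ClpC unigenes had negative changes, from -0.79 to -0.21, and limma called 0 of them, with 3 lower at an unadjusted p under 0.05.

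The 10 unigenes named ClpB, the disaggregating HSP100 that clears heat-damaged protein, gave 3 called higher and 1 lower, all with weak matches. Of the 4 with an expectation value of 1e-100 or less, limma called 0 (1 lower at an unadjusted p under 0.05), with a median of -0.18, while of the 6 with a value above 1e-20 it called 3 higher and 1 lower. Ob_11996, whose nr match is HSP101, the cytosolic ClpB of plants, was picked after its values were seen and was at 3.06 and 3.63 FPKM in the control libraries and 2.36 and 2.54 FPKM in the chilling libraries, a change of -0.33 ± 0.16 (adjusted p = 0.117). Ob_29308, matched to CLPB1, was at 3.15 and 2.64 FPKM in the control libraries and 7.54 and 7.66 FPKM in the chilling libraries, 2.63-fold higher (adjusted p = 4.13e-04). Its call was lost without chilling replicate 1 (adjusted p = 0.0183), chilling replicate 2 (adjusted p = 0.02) or control replicate 2 (adjusted p = 0.0107). Ob_34064 was at 13.4 and 12.4 FPKM in the control libraries and 44.4 and 43.6 FPKM in the chilling libraries, 3.42-fold higher (adjusted p = 1.65e-06), while Ob_32272 was at 13.6 and 13.6 FPKM in the control libraries and 3.8 and 3.49 FPKM in the chilling libraries, 3.74-fold lower (adjusted p = 2.17e-05). The expectation values of Ob_29308, Ob_34064 and Ob_32272 were 7e-14, 8e-09 and 1e-12 and their nr matches were uncharacterized proteins, so their names are uncertain. Ob_22774, another weak match that was picked after its values were seen, was also called higher but in no fit with a library left out (adjusted p 0.0213 to 0.094).

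Small heat shock proteins, the class most strongly induced by heat in plants, were at low levels here. The 17 members summed to 178 and 175 FPKM in the controls and 151 and 154 FPKM after chilling. Of 14 tested, 2 were called higher and 3 lower, with a median of -0.36. The largest change among the called members in the higher direction was Ob_18444, matched to the small heat shock protein HSPC4-1, at 2.92 and 2.12 FPKM in the control libraries and 39.6 and 39.4 FPKM in the chilling libraries, 15.7-fold higher (adjusted p = 1.37e-06). Its match had an expectation value of 2e-10 and its nr match was an uncharacterized protein.

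A pair of unigenes with the same match, the cytosolic class I protein HSP18.2, went in opposite directions. Ob_15506 was at 2.76 and 2.57 FPKM in the control libraries and 6.94 and 7.57 FPKM in the chilling libraries, and Ob_15505 at 4.99 and 5.44 FPKM in the control libraries and 2.44 and 2.4 FPKM in the chilling libraries. The former was called higher at 2.72-fold and the latter lower at 2.15-fold, and in neither did the groups overlap. Both calls were lost whichever library was left out, with adjusted p of 0.0104 to 0.018 and 0.0195 to 0.0313, and that of Ob_15505 was also lost after TPM rescaling.

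HSP15.4 (Ob_12773), a class V small heat shock protein, was at 47.7 and 45.9 FPKM in the control libraries and 16.6 and 18.1 FPKM in the chilling libraries, 2.7-fold lower (adjusted p = 3.91e-06). Another tested unigene with the same HSP15.4 match had a change of 0.43 and was not called. Ob_08094, of class II, was at 2.34 and 2.58 FPKM in the controls. It was listed at 0 in chilling replicate 1 and was at 0.29 FPKM in chilling replicate 2. It was called lower (adjusted p = 0.001), but not without chilling replicate 1 (adjusted p = 0.0145), and it fell under the filter without either control. The HSP15.4 unigene Ob_12773 was also the most abundant member of the class by its mean. HSP17.6 of class I (Ob_27340), picked after its values were seen, was at 30.4 and 27.6 FPKM in the control libraries and 20 and 21.8 FPKM in the chilling libraries, with its chilling libraries below its controls and a change of -0.45 ± 0.071 that was not called.

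DnaJ proteins were the most numerous class, with 90 members and 85 tested, of which 6 were called higher and 4 lower. Those shares, 7.06% and 4.71%, were below the 11.9% and 13.8% of all tested unigenes. The median was 0.02, with 44 changes above 0 and 41 below, and the class summed to 2327 and 2352 FPKM in the controls and 2430 and 2434 FPKM after chilling. Most abundant was DNAJ1 (Ob_21073), a cytosolic partner of HSP70, at 251 and 249 FPKM in the control libraries and 383 and 386 FPKM in the chilling libraries, a change of 0.62 ± 0.016 with a fold under 2. Like the HSC-2 unigenes, its chilling libraries lay above its controls. Ob_28326 was at 181 and 179 FPKM in the control libraries and 167 and 162 FPKM in the chilling libraries and LDJ2 (Ob_18691) at 129.7 and 126 FPKM in the control libraries and 150.2 and 149 FPKM in the chilling libraries, changes of -0.13 and 0.22 that were not called. The first of these changed sign after TPM rescaling, to 0.051.

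The largest decreases of the class were in members below 50 FPKM. ATJ11 (Ob_16737), a small chloroplast DnaJ protein, was at 38.8 and 38.7 FPKM in the control libraries and 2.67 and 2.36 FPKM in the chilling libraries, 15.4-fold lower (adjusted p = 3.33e-07). Ob_21720, matched to a bacterial DnaJ, was at 37 and 41.2 FPKM in the control libraries and 5.43 and 4.25 FPKM in the chilling libraries, 8.08-fold lower (adjusted p = 3.17e-06). ATJ8 (Ob_13995), another chloroplast DnaJ protein, was at 14.6 and 16.2 FPKM in the control libraries and 1.43 and 2.35 FPKM in the chilling libraries, 8.13-fold lower (adjusted p = 3.61e-05), and its adjusted p was 0.0104 without control replicate 2. In these 3 the controls and the chilling libraries were far apart. The fourth, Ob_17866, matched to a bacterial DnaJ 2, was at 39.5 and 41.5 FPKM in the control libraries and 19.8 and 19.9 FPKM in the chilling libraries, a fold of 2.04 that became 1.99 without control replicate 2 and was lost after TPM rescaling. The matches of Ob_16737, Ob_21720 and Ob_17866 were weak, with expectation values of 3e-16, 5e-12 and 2e-13. The nr match of Ob_16737 was a hypothetical protein and that of Ob_17866 an uncharacterized protein, so their names are uncertain. Other unigenes with the ATJ8 and ATJ11 matches, named here after their values were seen, did not fall and were not called. For ATJ8, Ob_20590 was at 46.7 and 50.6 FPKM in the control libraries and 55.4 and 58.1 FPKM in the chilling libraries. For ATJ11, Ob_14997 was at 5.17 and 5.08 FPKM in the control libraries and 7.54 and 6.53 FPKM in the chilling libraries.

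Among the 6 DnaJ members called higher, DNAJB6 (Ob_20359), weakly matched (1e-09) to an animal protein that keeps other proteins from aggregating, reached the highest level. It was at 13.4 and 13.3 FPKM in the control libraries and 74.1 and 70 FPKM in the chilling libraries, 5.4-fold higher (adjusted p = 1.76e-07), and it is the only member of the 6 that was called in all 4 fits with a library left out. Ob_17309, matched to a bacterial DnaJ, was at 0.44 and 0.57 FPKM in the control libraries and 4.14 and 5.25 FPKM in the chilling libraries, and its call was lost without control replicate 1 (adjusted p = 0.0103). ATJ20 (Ob_06345), a chloroplast DnaJ protein, was at 0.77 and 0.75 FPKM in the control libraries and 6.23 and 4.22 FPKM in the chilling libraries. Its call was lost without chilling replicate 1 (adjusted p = 0.0112), control replicate 1 (adjusted p = 0.0185) or control replicate 2 (adjusted p = 0.0192). ATJ10 (Ob_25191) was at 5.1 and 6.61 FPKM in the control libraries and 17.5 and 14.6 FPKM in the chilling libraries, and its call was lost without chilling replicate 1 (adjusted p = 0.0167), chilling replicate 2 (adjusted p = 0.0117) or control replicate 1 (adjusted p = 0.0122). The matches of Ob_17309 and Ob_25191 were weak (expectation values 6e-16 and 9e-11). Of the 6 tested unigenes with the ATJ10 match, 1 was called higher and 0 lower, with changes from -0.67 to 1.32. The closest match among them, Ob_33265, named here after its values were seen, had a change of 0.65 with a fold under 2. The other 2 higher members of the class were picked after their values were seen and weakly matched to bacterial DnaJ proteins (6e-15 and 6e-06). Ob_13900 was at 15.8 and 18.5 FPKM in the control libraries and 34.1 and 35.5 FPKM in the chilling libraries. Ob_14904 was at 1.62 and 0.8 FPKM in the control libraries and 3.02 and 3.79 FPKM in the chilling libraries. The call of Ob_13900 was lost without chilling replicate 2 (adjusted p = 0.0106) or control replicate 1, where the fold was 1.88, and that of Ob_14904 whichever library was left out (adjusted p 0.0182 to 0.101).

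The co-chaperone class, which is mostly BAG proteins, had 6 of 17 tested members called lower and 0 higher by limma (4 higher at an unadjusted p under 0.05), with a median of -0.37. BAG1 (Ob_16858), whose BAG domain binds HSP70, was at 15.8 and 16 FPKM in the control libraries and 0.8 and 0.95 FPKM in the chilling libraries, 18.1-fold lower (adjusted p = 2.93e-06). BAG7 (Ob_17580), which in Arabidopsis resides in the endoplasmic reticulum, was at 74 and 74.7 FPKM in the control libraries and 14.6 and 16.3 FPKM in the chilling libraries, 4.8-fold lower (adjusted p = 4.99e-07). BAG2 (Ob_16860), a weak match (2e-10), was at 8.71 and 7.74 FPKM in the control libraries and 1.26 and 0.42 FPKM in the chilling libraries, and its call was lost without control replicate 1 (adjusted p = 0.0203) or control replicate 2 (adjusted p = 0.0184). In all 3 both chilling libraries were well below both controls. The other tested unigenes with the BAG1 and BAG2 matches changed by -0.35 and -0.37 and were not called.

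A second BAG7 unigene, Ob_38028, with its best nr match in rice, was at 2.97 and 2.69 FPKM in the control libraries and 0.46 and 0.46 FPKM in the chilling libraries, and its call was lost without chilling replicate 1 (adjusted p = 0.015) or chilling replicate 2 (adjusted p = 0.0153). Some other BAG unigenes went the other way. Of the 3 tested unigenes with the BAG3 match, limma called 0, and their changes ran from -0.50 to 0.87. BAG3 (Ob_27034), the most abundant of the class, was at 38.3 and 42.4 FPKM in the control libraries and 72.8 and 76.4 FPKM in the chilling libraries, a change of 0.87 ± 0.057 with a fold under 2, and it was called higher after TPM rescaling. BAG6 (Ob_32774), named here after its values were seen, was at 30.1 and 31.6 FPKM in the control libraries and 50.8 and 51.2 FPKM in the chilling libraries, a change of 0.71 ± 0.045 that was not called. The homologue of AHSA1 (Ob_22924), which stimulates the ATPase of HSP90 and was also picked after its values were seen, was at 57.6 and 54.8 FPKM in the control libraries and 28.2 and 27.8 FPKM in the chilling libraries, a fold of 2.01 that went to 1.99 without chilling replicate 2 and 1.96 without control replicate 1, and its call was lost after TPM rescaling. BAG5 (Ob_15536), also picked after its values were seen, was at 4.16 and 3.88 FPKM in the control libraries and 0.87 and 1.17 FPKM in the chilling libraries, and its call was lost whichever library was left out (adjusted p 0.0132 to 0.0174).

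**Figure D4:**
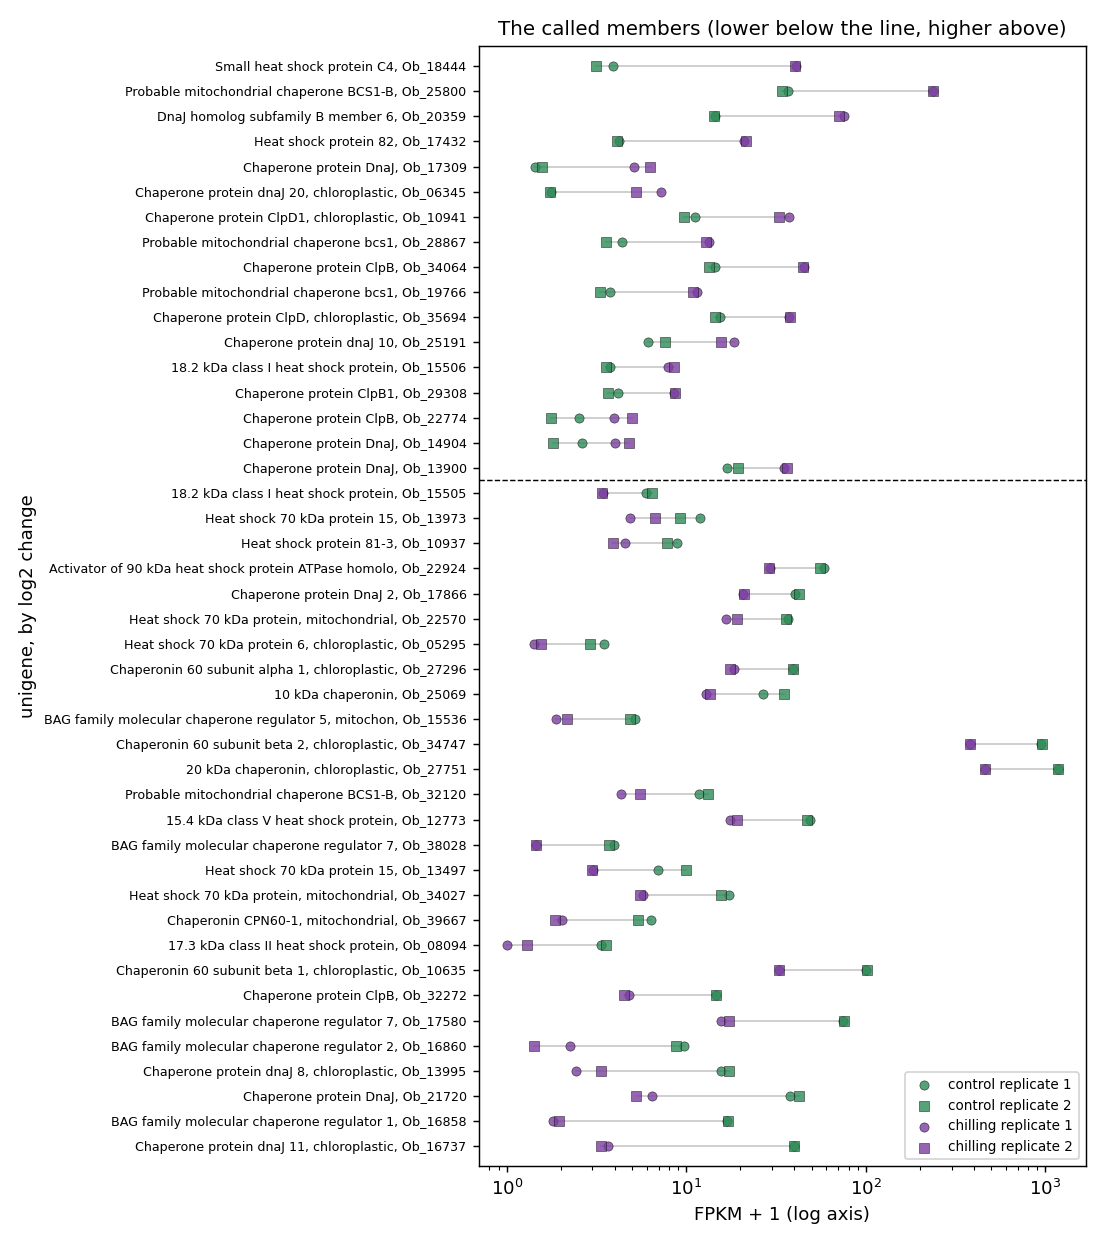
FPKM + 1 on a log axis in each library for the 44 called members, ordered by log2 change, with the 27 called lower below the dashed line and the 17 called higher above it (green, control; purple, chilling; circle, replicate 1; square, replicate 2). The widest gaps are at the ends, ATJ11 (Ob_16737) at 38.8 and 38.7 FPKM in the controls against 2.67 and 2.36 FPKM after chilling, and Ob_18444 at 2.92 and 2.12 FPKM against 39.6 and 39.4 FPKM.

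BCS1 proteins are AAA-type ATPases of the inner mitochondrial membrane. In yeast, BCS1 inserts the iron-sulphur protein of the respiratory complex that passes electrons to cytochrome c. Plant genomes hold many relatives of it. The Swiss-Prot matches of the members here were in frog, yeasts and a slime mould, with expectation values from 3e-34 to 2e-23. Whether these unigenes share the membrane or the task of yeast BCS1 was not tested. Of 10 members, all tested, 3 were called higher and 1 lower, with a median of 0.41. Ob_25800, matched to BCS1-B of a slime mould, was at 35.8 and 32.9 FPKM in the control libraries and 235 and 234 FPKM in the chilling libraries, 6.83-fold higher (adjusted p = 4.33e-08). It was the only member called higher with a mean of at least 100 FPKM.

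The other higher BCS1 unigenes were at lower levels. Ob_28867 was at 3.36 and 2.59 FPKM in the control libraries and 12.4 and 11.8 FPKM in the chilling libraries, 4.06-fold higher (adjusted p = 6.21e-05), and Ob_19766 was at 2.77 and 2.32 FPKM in the control libraries and 10.5 and 9.88 FPKM in the chilling libraries, 4-fold higher (adjusted p = 6.23e-05). The 3 higher members kept their call in all 4 fits with a library left out. Ob_32120, with the same match as Ob_25800, was at 10.8 and 12.2 FPKM in the control libraries and 3.3 and 4.55 FPKM in the chilling libraries and was called lower, a call that was lost without control replicate 1 (adjusted p = 0.0184) or control replicate 2 (adjusted p = 0.0241).

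Members that regulate heat shock genes were not called in either direction in any of 6 tested cases, though 4 passed the adjusted p and 5 had an unadjusted p under 0.05 in limma, 2 higher and 3 lower. After TPM rescaling 1 of them was called higher, HSF24 (Ob_24622), picked after its values were seen and at 5.44 and 7.16 FPKM in the control libraries and 10.7 and 12.5 FPKM in the chilling libraries. HSBP1 (Ob_17250), a small protein that in animals binds the heat shock factor and holds back its activity, was at 202 and 220.0 FPKM in the control libraries and 135 and 138 FPKM in the chilling libraries, a change of -0.63 ± 0.04 (adjusted p = 2.51e-05). Both chilling libraries lay below both controls, with a fold under 2. Transcription factors named heat stress transcription factor fall outside the rule, and of their 23 tested unigenes 5 were called higher and 4 lower. These were 21.7% and 17.4% of them, beside 11.9% and 13.8% of all tested unigenes. HSFC1 (Ob_32677) was at 2.55 and 4.33 FPKM in the control libraries and 38.8 and 39.8 FPKM in the chilling libraries, 11.4-fold higher (adjusted p = 1.31e-05). HSFA3 (Ob_32723), which in Arabidopsis acts in drought and heat responses, was at 12.2 and 13.2 FPKM in the control libraries and 2.3 and 2.27 FPKM in the chilling libraries, 5.55-fold lower (adjusted p = 1.39e-05). A second HSFC1 unigene, Ob_32676, the most abundant of the list, was at 35.2 and 35.8 FPKM in the control libraries and 66.1 and 65.8 FPKM in the chilling libraries, with a fold under 2.

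Chaperones for metals and for the proteasome gave no calls in limma, with 1 of 4 tested metal chaperones at an unadjusted p under 0.05. The copper chaperone CCS (Ob_30412), which loads superoxide dismutase, was at 25.4 and 25.5 FPKM in the control libraries and 21.8 and 22.5 FPKM in the chilling libraries (adjusted p = 0.0213), the most abundant of its class. The 3 proteasome assembly chaperones all passed the adjusted p with a fold under 2 and a median of 0.50. PSMG2 (Ob_33748), the most abundant of them, was at 39.6 and 39.6 FPKM in the control libraries and 45 and 46.8 FPKM in the chilling libraries.

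Folding factors of other kinds lie outside the rule and are given below by list. The share called in either direction ran from 3.28% in peptidyl-prolyl isomerases to 20.8% in the endoplasmic reticulum list. Over all tested unigenes it was 25.6%. The share called lower in the endoplasmic reticulum list was 16.7%, beside 13.8% over all tested unigenes. In the endoplasmic reticulum, 1 of 24 tested luminal-binding protein, endoplasmin, calnexin and calreticulin unigenes was called higher and 4 lower. Calreticulin-3 (CRT3, Ob_32401), which retains misfolded glycoproteins, was at 20.3 and 23.5 FPKM in the control libraries and 49.6 and 50.3 FPKM in the chilling libraries, 2.28-fold higher (adjusted p = 2.19e-05), and a calreticulin unigene whose best nr match is in rice (Ob_06138) was at 9.56 and 11 FPKM in the control libraries and 2.7 and 3.37 FPKM in the chilling libraries. The most abundant calreticulin unigene, Ob_34389, was at 341 and 340.2 FPKM in the control libraries and 374 and 371 FPKM in the chilling libraries and was not called.

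Enzymes that act on disulphide and proline bonds followed. Of 25 tested protein disulphide isomerases, 1 was called higher and 3 lower. LQY1 (Ob_16979), which takes part in the repair of photosystem II in the thylakoid, was at 211 and 203 FPKM in the control libraries and 57.1 and 57.3 FPKM in the chilling libraries, 3.62-fold lower (adjusted p = 4.51e-08), while SCO2 (Ob_23477), needed for chloroplast development in seedlings, was at 13.3 and 12.7 FPKM in the control libraries and 26.8 and 28.8 FPKM in the chilling libraries and was called higher. Peptidyl-prolyl isomerases had 2 of 61 called lower and 0 higher (18 higher at an unadjusted p under 0.05 in limma), and the largest decrease was in a chloroplast cyclophilin, CYP20-2 (Ob_13194), at 71.6 and 68.1 FPKM in the control libraries and 22.1 and 24.1 FPKM in the chilling libraries. The most abundant unigene of that list, Ob_25211, also matched CYP20-2 and was at 617 and 628 FPKM in the control libraries and 444 and 431 FPKM in the chilling libraries, with a fold under 2.

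Co-chaperones that organise or recycle HSP70 and HSP90 had 1 of 17 tested called higher and 2 lower. SGT1 (Ob_22509), an HSP90 partner in plant immunity, was at 32.1 and 34 FPKM in the control libraries and 64.7 and 67.5 FPKM in the chilling libraries, at a fold of 2 right at the limit, and the abundant SGT1 unigene Ob_30541 was at 140.5 and 141 FPKM in the control libraries and 175 and 175 FPKM in the chilling libraries. The SGT1 unigene with its best nr match in rice, Ob_37013, was at 3.94 and 4.91 FPKM in the control libraries and 1.62 and 1.38 FPKM in the chilling libraries. Of 16 tested prefoldin and tubulin-folding unigenes 2 were called lower and 0 higher (3 higher at an unadjusted p under 0.05 in limma), with tubulin-folding cofactor C (Ob_22661) at 12.6 and 12.8 FPKM in the control libraries and 3.86 and 3.8 FPKM in the chilling libraries and the most abundant, cofactor E (Ob_21586), at 64.1 and 69.4 FPKM in the control libraries and 71.9 and 70.9 FPKM in the chilling libraries.

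The names of some matches give a compartment. Members with a chloroplast name gave 3 called higher and 7 lower of 29 tested, and their sum was 3110 FPKM as the mean of the controls and 1606 FPKM as the mean after chilling. The 8 chaperonins with chloroplastic in the name held 2325 and 982 FPKM of these sums and 4 of the 7 lower calls. Members with a mitochondrial name gave 3 higher and 5 lower of 25, and those with no compartment in the name gave 11 higher and 15 lower of 152. All 3 higher members with a mitochondrial name, and 1 of the 5 lower, were BCS1 unigenes. The shares called higher and lower were 10.3% and 24.1% for chloroplast, 12% and 20% for mitochondrial, and 7.24% and 9.87% for no compartment. Over all tested unigenes they were 11.9% and 13.8%. These counts were not tested against each other.

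A group of 30 members had the best nr match in rice, although the plant is a basil. Of these 17 were tested, 0 were called higher and 3 lower (0 and 9 at an unadjusted p under 0.05 in limma), with a median of -0.50, and their sum was 67.5 FPKM as the mean of the controls and 35.8 FPKM as the mean after chilling. Over all 2017 tested unigenes with a grass match, 73 were called higher and 309 lower, with a median of -0.48. Whether the rice-matched unigenes come from the basil was not tested. Without these members the calls were 17 higher and 24 lower.

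Shared matches limit how far unigenes can be counted as genes. Of the 235 members, 144 had a Swiss-Prot match that another member also had, and the members matched 142 distinct proteins. Matches with an expectation value above 1e-20 gave 9 called higher and 8 lower of 57 tested, and matches at or below it gave 8 higher and 19 lower of 149. Just inside the limit of 2 the smallest called folds were 2.03 among the higher members and 2.01 among the lower.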

How the data were processed

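Leaf RNA of 2 control and 2 chilling libraries was sequenced. Per the study's methods, the authors trimmed the reads, pooled them for de novo assembly with Trinity, and took a gene's longest isoform as its unigene. The deposited FPKM of each unigene and library were computed by the authors with RSEM and rounded to 2 decimals, and they do not sum to a common total. They are not counts, so edgeR, which the authors used, was not applied. The deposited annotation gives the best BLASTX match in nr, Swiss-Prot and KEGG, and its expectation value was used as another number, to show how close a match is. The authors' own lists of regulated genes give their fold changes and p-values and 8 columns of values per sample, and none of them was used.

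Members were found by words in the Swiss-Prot description and sorted into classes by further words. The members, classes and lists of related genes were chosen with earlier results of these data known. limma 3.58.1 in R 4.3.3 was fitted to log2(FPKM + 1) of the unigenes whose FPKM averaged at least 1, with a trended prior variance and Benjamini-Hochberg adjustment. The fit has 2 residual degrees of freedom. The script was tested on simulated data. The text names, from each class, the 4 largest called changes in each direction, the most abundant member and every member with a mean of at least 100 FPKM. From each related list it names the largest called change in each direction and the most abundant unigene. No genome or sequence of the unigenes was used here, so no positions are given. Alternatives were a pseudocount of 0.1, no filter, a mean of at least 5 FPKM, rescaling to TPM or by the median ratio, a replicate block, no trend, an adjusted p of 0.05, a log2 change of 1, leaving out grass matches and leaving out each library.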

Additional observations from a re-analysis of the deposited data

How the results depend on the processing

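The calls among members were least stable to the loss of a library. With each library left out in turn, 10 to 12 members were called higher and 17 to 19 lower, and over all unigenes 1748 to 2425 were called higher and 2251 to 2355 lower. The library left alone in its group is then assumed to vary like the other group. Of the 17 higher members 9 were called in all 4 of these fits, and of the 27 lower members 11 were. Raising the filter to a mean of 5 FPKM left 12 members higher and 19 lower, and over all unigenes 2035 higher and 2193 lower against 3917 and 4548, since fewer were tested. With the replicate number as a block, 15 members were called higher and 25 lower. HSP70 went from 5 called lower to 3 with the block. The labels do not say that a number marks samples handled together, and the correlation of same-numbered deviations was 0.0076. TPM rescaling gave 21 higher and 20 lower, among them all 17 of the higher and 20 of the 27 lower, and median ratio rescaling gave 17 and 25. The counts of members were 15 and 26 with a pseudocount of 0.1, 15 and 27 with no filter, 15 and 27 with no trend, 18 and 33 at an adjusted p of 0.05, 16 and 22 with a log2 change of at least 1, and 17 and 24 without grass matches. Of the 52 members named by the stated rule, Ob_28326 (DnaJ), which was not called, went from -0.13 to 0.051 with TPM rescaling. No other of these 52 changed direction under these alternatives. Members that the text names beyond that rule are not covered by this statement. The number of reads behind each value is unknown, so no counting interval is given.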
